A study of Mus musculus with 21 samples.

Results

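The genes examined here encode 10 proteins that bind histone H3 trimethylated at lysine 36 (H3K36me3): Dnmt3a, Dnmt3b, Msh6, Psip1, Morf4l1, Zmynd11, Brpf1, Phf1, Phf19 and Mtf2. They were taken by name from a list of known readers of the mark, not by their values, and are 10 of 19304 protein-coding genes of at least 2 kb. H3K36me3 was profiled by ChIP-seq, chromatin immunoprecipitation with sequencing, in C2C12 mouse myoblasts, an established line whose cells can fuse into myotubes. Wild-type (WT) cells were sampled in duplicate at day 0 and, with either control or methionine-restricted medium, at day 1 and day 5, which makes 5 conditions and 10 libraries. For the Setd2 knockout (KO), 2 lines, called line 1 and line 2 in the labels, gave 1 library each per condition. The edited allele, the way the KO lines were made and the composition of the media are not given in the sources used here. The measure throughout is cover, the percent of a gene body that lies inside the authors' called peaks of a library, and differences in cover are in percentage points. Cover says how much of a gene was called, not how much of the mark it carried.

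SETD2 places H3K36me3 on nucleosomes as RNA polymerase II elongates, so the mark lies over the bodies of transcribed genes. Readers hold it in a PWWP domain (DNMT3A, DNMT3B, MSH6, PSIP1, ZMYND11 and BRPF1), a chromodomain (MORF4L1) or a Tudor domain (PHF1, PHF19 and MTF2), and link it to DNA methylation, mismatch repair, histone acetylation or Polycomb repression. Methionine is the source of S-adenosylmethionine, the methyl donor of histone methyltransferases.

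The files hold no read depth, and WT libraries had 63423 to 87398 peaks over 110 to 183 Mb. KO line 1 had 791 to 64530 peaks and KO line 2 had 127 to 13880. The lowest of both lines was the restricted day 1 library. Names inside the KO lists number the lines as replicates 1 and 2, whereas here the labels decided which line a library is. Setd2 itself was covered to between 45.6% and 82.8% in the 10 WT libraries, to between 0% and 24.0% in KO line 1 and to 0% in every library of KO line 2, which reports the mark on the gene and not the protein. Of the muscle markers, Des, Myod1 and, to 11.9%, Myf5 were covered in WT at day 0, and Myog, Acta1, Myh3 and Ckm went from 0% at day 0 to between 69.8% and 93.1% at day 5 in control medium. Under restriction Myog and Myod1 were at 0% on both days. All 5 markers of other cell types were at 0% in every WT group. Nothing in the labels says that WT replicates came from separate cultures, so p-values measure only the spread between these libraries, which may be technical.

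The readers fell into a well covered and a sparsely covered set in WT cells. Averaged over the 10 WT libraries, cover was 79.4% for Psip1, 77.0% for Brpf1, 63.0% for Morf4l1, 62.5% for Msh6, 61.1% for Phf1 and 60.3% for Mtf2. The remaining genes stood far lower, at 24.0% for Zmynd11, 18.8% for Phf19, 15.8% for Dnmt3a and 4.70% for Dnmt3b. At day 0 the order ran from Psip1 at 90.7% ± 6.27 (SD, n = 2) down to Dnmt3b at 9.60% ± 1.96 (SD, n = 2), and 3 of the 9 pairs of neighbours in that order had overlapping replicates. Under restriction at day 1 the overlapping neighbours numbered 6 of 9, and Brpf1 at 69.5% ± 3.96 (SD, n = 2) stood beside Psip1 at 65.6% ± 8.20 (SD, n = 2). Even in the library where it was highest, Dnmt3b reached 12.2%, while a median over all genes of at least 2 kb never exceeded 4.33% in a WT library. Gene length differed too, from 4.78 kb for Phf1 to 113 kb for Dnmt3a.

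**Figure D1:**
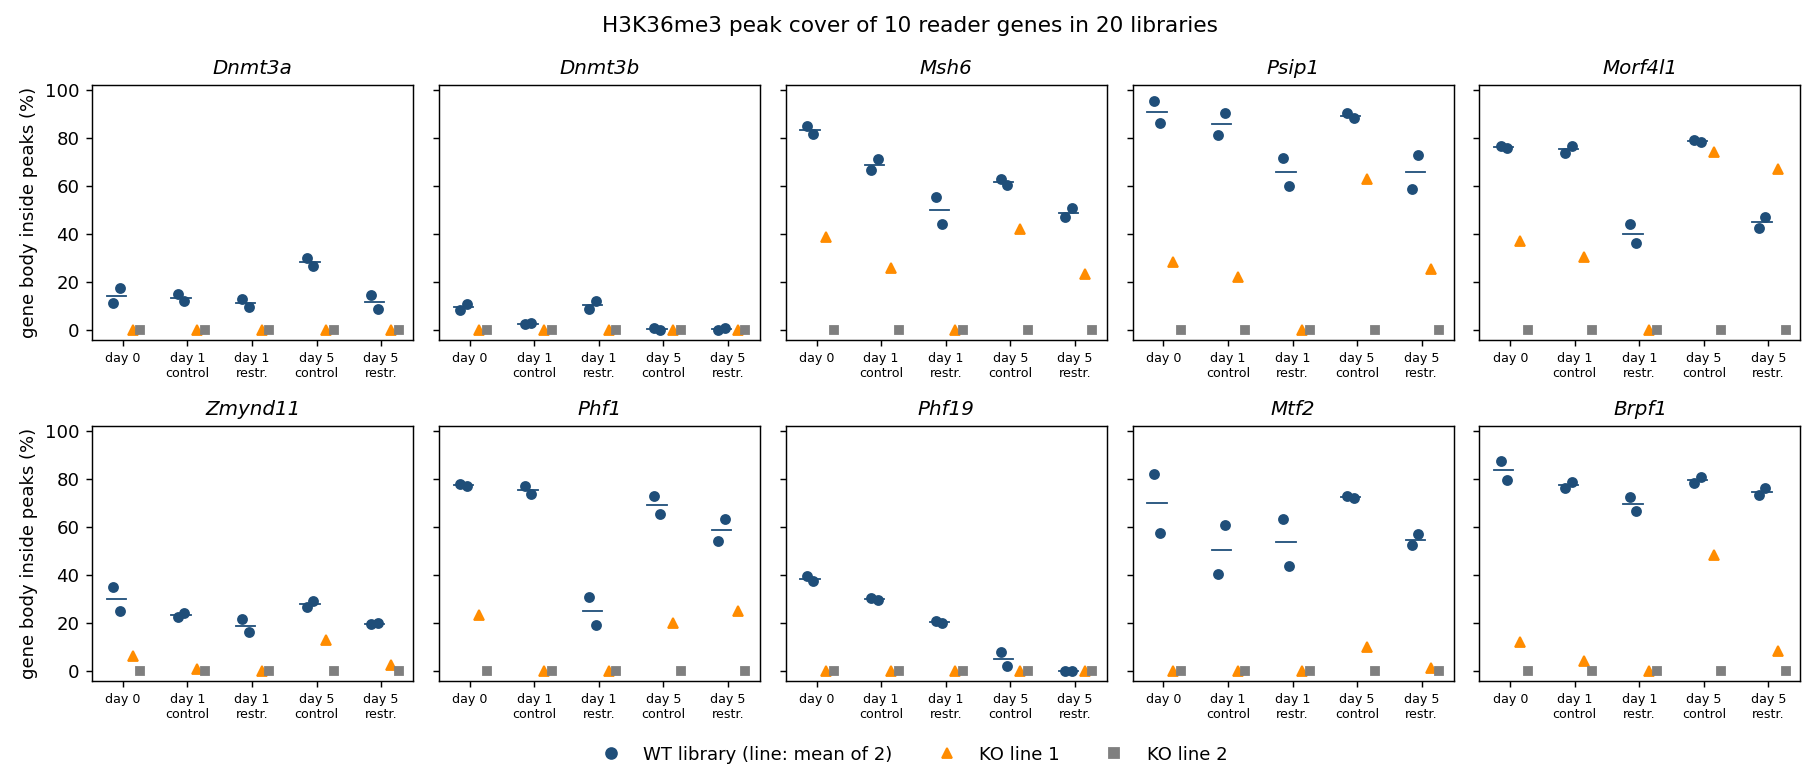
Cover of each reader gene (percent of the gene body inside peaks, vertical axis) in the 5 conditions, with WT libraries as circles, their mean of 2 as a line, KO line 1 as triangles and KO line 2 as squares. Psip1, Brpf1, Morf4l1, Msh6, Phf1 and Mtf2 lie high in WT, KO line 2 is at 0% in every panel, and Morf4l1 in KO line 1 at day 5 lies below both WT libraries in control medium and above both under restriction.

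Within the gene bodies, cover began downstream of the start. Each gene body was divided into 10 bins of equal length. Over the 9 members whose strand the reference gives (all but Psip1), the mean over the WT libraries was 3.44% in the bin nearest the start and 65.4% in the ninth bin. Brpf1, Morf4l1, Phf1 and Msh6 were covered in 1 or a few long stretches: at day 0 the longest was 15.8 and 11 kb in Brpf1, 17.6 and 17.5 kb in Morf4l1, and 3.73 and 3.68 kb in Phf1. Dnmt3a, in contrast, was covered in 22 and 27 separate stretches at day 0, the longest of 1.5 and 1.85 kb. Phf19 had no peak in the first 5 bins in any WT library, and Zmynd11 was covered best in its last bin, at 88.2% to 100% by group.

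**Figure D2:**
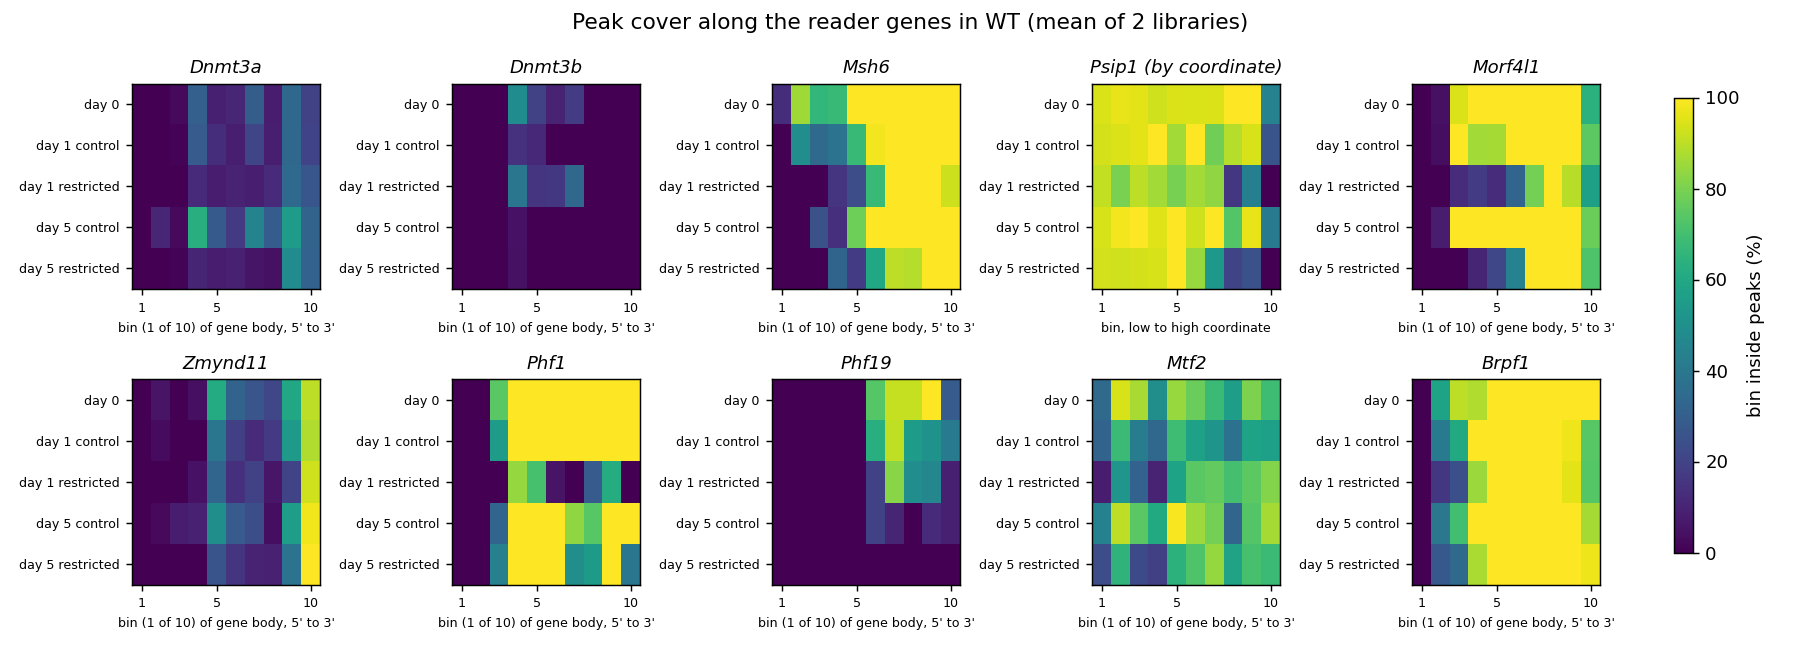
Mean cover of each bin of the gene body (colour, percent) in the 5 WT conditions, for all 10 reader genes, from 5′ to 3′ except for Psip1, which is drawn by coordinate. The first bin is dark in every oriented gene but Mtf2 and, at day 0, Msh6, and under restriction Morf4l1 on both days and Msh6 at day 1 darken from the 5′ side while Phf1 at day 1 darkens over its 3′ bins.

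The start sites are shown because cover began downstream of most of them and because Mtf2 has a pair of starts that behave differently. Windows of 300 bases, from 250 bases before to 50 after a RefSeq start on GRCm38.p6, were given for 15 starts of 9 members, and 13 of these had no cover in any WT library. Over all 32851 windows of the reference, between 1.68% and 3.58% had any cover in a WT library. In the 4 windows below, all on the + strand and written 5′ to 3′, capitals mark each CG dinucleotide, the site of DNA methylation, which reads the same on both strands. The upstream Mtf2 start (chr5:108065424-108065723) holds 30 CG and was at 0% in every library. The internal Mtf2 start (chr5:108077915-108078214), 12.5 kb into the gene, holds 2. The Phf1 start (chr17:26932877-26933176) holds 24, and an internal start of Dnmt3a (chr12:3891494-3891793), 90.2 kb into the gene, holds 18 and was at 0% in every library.
Mtf2 upstream start: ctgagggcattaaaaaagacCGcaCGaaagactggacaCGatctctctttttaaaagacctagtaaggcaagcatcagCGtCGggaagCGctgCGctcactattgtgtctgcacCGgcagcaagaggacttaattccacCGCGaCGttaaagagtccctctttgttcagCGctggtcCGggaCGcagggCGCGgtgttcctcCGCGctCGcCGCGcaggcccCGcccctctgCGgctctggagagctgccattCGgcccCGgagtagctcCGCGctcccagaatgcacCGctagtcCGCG
Mtf2 internal start: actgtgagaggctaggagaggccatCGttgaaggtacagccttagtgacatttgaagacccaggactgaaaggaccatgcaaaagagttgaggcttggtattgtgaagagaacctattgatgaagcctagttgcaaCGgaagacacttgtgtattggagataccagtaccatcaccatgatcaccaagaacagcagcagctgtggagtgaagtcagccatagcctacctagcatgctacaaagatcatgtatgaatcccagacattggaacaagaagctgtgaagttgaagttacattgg
Phf1 start: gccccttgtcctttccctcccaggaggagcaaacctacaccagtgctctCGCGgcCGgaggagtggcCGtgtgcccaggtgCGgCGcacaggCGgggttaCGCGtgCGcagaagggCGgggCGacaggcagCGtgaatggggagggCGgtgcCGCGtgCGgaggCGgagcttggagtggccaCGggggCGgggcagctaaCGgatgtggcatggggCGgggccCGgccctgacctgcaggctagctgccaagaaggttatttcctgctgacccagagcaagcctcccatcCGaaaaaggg
Dnmt3a internal start: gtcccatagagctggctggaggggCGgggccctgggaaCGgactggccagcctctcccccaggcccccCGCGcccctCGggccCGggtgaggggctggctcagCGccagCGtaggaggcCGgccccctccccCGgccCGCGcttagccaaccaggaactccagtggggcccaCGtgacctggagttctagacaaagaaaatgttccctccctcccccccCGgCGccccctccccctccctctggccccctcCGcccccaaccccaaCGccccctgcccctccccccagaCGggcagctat

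Of all windows, 23.3% hold as few CG as the internal Mtf2 start, and 89.4% hold no more than the upstream one. The internal Mtf2 window lay inside peaks to 100% in both libraries of day 0, to 96.7% and 100% at day 1 in control medium, to 100% in both restricted day 1 libraries and to 100% in both day 5 control libraries. In both restricted day 5 libraries it was at 0%, so the groups did not overlap at day 5. KO line 1 covered 55.0% of it in the day 5 control library, its other libraries 0%. The Phf1 window was covered to 5.33% and 14.3% at day 0 and to 68.7% in replicate 2 of day 1 in control medium, and was at 0% in the other WT libraries. It was also covered to 74.3% in KO line 2 at day 5 in control medium, a library in which the Phf1 body was at 0%. No test was made on single windows.

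Methionine restriction at day 1 was compared with control medium of the same day in WT cells. Cover fell for 5 of the 9 readers that passed a minimum mean cover of 5%, by limma with Benjamini-Hochberg adjustment over 9514 genes, and rose for 0. Of all genes tested 38.3% were called, 3422 lower and 226 higher, and the median difference was -9.50 points over the 9 readers against -7.99 over all genes. The genes that fell were Phf1, Morf4l1, Psip1, Msh6 and Phf19.

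The deepest loss was in Phf1, an accessory subunit of Polycomb repressive complex 2 (PRC2). Its cover was 77.1% and 73.8% in control medium and 30.7% and 19.3% under restriction. The restricted libraries lay far below the control libraries, with no overlap. The difference was -50.4 points (SE 5.13, adjusted p = 0.000190 by limma), and it was called in 17 of 17 alternative analyses. Morf4l1 (MRG15), a subunit of the TIP60 acetyltransferase and of a SIN3 deacetylase complex, had 73.6% and 76.7% in control medium and 44.0% and 36.2% under restriction. Here too the restricted libraries were both below the controls (difference -35.1 points, SE 3.84, limma adjusted p = 0.000262), and the call held in 17 of 17 alternatives. A pseudogene, Morf4l1-ps1, may share reads with the exons of Morf4l1. It was at 6.07% and 0% in control medium and at 0% in both restricted libraries.

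Psip1, which encodes the chromatin tether LEDGF, was covered to 81.3% and 90.2% in control medium and to 71.4% and 59.8% under restriction, without overlap. The difference of -20.2 points (SE 5.88, limma adjusted p = 0.0267) includes bases that another gene shares, since 56.3% of the Psip1 body also lies in Snapc3. On the bases that only Psip1 holds, cover was 68.4% and 80.0% in control medium and 47.8% and 28.7% under restriction, and the difference was -35.9 points (adjusted p = 0.0149). The call on the whole gene held in 13 of 17 alternatives at day 1. Snapc3 itself had 69.1% and 77.5% against 60.1% and 51.5%. By coordinate, the loss in Psip1 lay at the high end: its eighth bin went from 88.9% to 16.2% and its ninth from 94.1% to 43.3%. The first 7 bins stayed between 79.5% and 91.0% under restriction. The bases shared with Snapc3 lie at the low end, so most of the bins that stayed covered also belong to that gene.

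Msh6, which encodes a mismatch-binding protein of DNA repair, had 66.4% and 71.0% in control medium and 55.5% and 44.1% under restriction, again without overlap (difference -18.9 points, SE 4.51, limma adjusted p = 0.0117), which held in 13 of 17 alternatives. Phf19, another accessory subunit of PRC2, had 30.5% and 29.7% in control medium and 21.0% and 20.2% under restriction (difference -9.50 points, SE 2.78, limma adjusted p = 0.0270). This lower call held in 7 of 17 alternatives and was lost in the fit on only the libraries compared (adjusted p = 0.103), and without either library of the day 1 control, day 1 restricted or day 5 restricted group (adjusted p-values of 0.0577 to 0.103). The replicates of Phf19 were close, but its direction turned with the scaling: lists trimmed to equal length gave +16 points (adjusted p = 0.00633), and centring each library on its median gave +5.68. Without replicate 2 of either day 1 group, Phf1 and Morf4l1 were the 2 calls left among the readers. Centring took the calls of Msh6 and Psip1 away, at -3.69 and -5.00 points.

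The other 4 tested readers were not called lower or higher at day 1. Brpf1, the scaffold of the MOZ and MORF acetyltransferases, had a difference of -7.88 points (SE 3.51), and Zmynd11, a reader tied to transcript elongation, had -4.23 (SE 3.86). Dnmt3a, a de novo DNA methyltransferase, was at 14.9% and 11.9% against 12.8% and 9.45%, which overlap. Mtf2, the third accessory subunit of PRC2 in the list, was at 40.4% and 60.7% against 63.5% and 43.8%. Its replicates spread more than its groups differed (difference 3.09 points, SE 9.80). On centred values the signs of Brpf1, Zmynd11 and Dnmt3a turned positive. Dnmt3a (+12.9 points, limma adjusted p = 0.0264) and Zmynd11 (+11, limma adjusted p = 0.0247) were then called higher, so the readers split into 2 higher and 2 lower. Centring moves every gene of a comparison by the same amount, and before it both genes had lower means under restriction.

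Dnmt3b, the second de novo DNA methyltransferase, was under the minimum cover and was not tested in the main analysis. Its values ran opposite to those of the 5 called readers: 2.28% and 2.84% in control medium at day 1 and 8.57% and 12.2% under restriction. The restricted libraries were both higher. With no minimum cover, limma gave +7.84 points (SE 1.41, adjusted p = 0.00626). The peaks lay in the fourth to the seventh bin of the gene, where means went from 14.1% to 39.1% in the fourth bin and from 0% to 33.9% in the seventh. The reference also names pseudogenes for both enzymes, Dnmt3a-ps1 and Dnmt3b-ps1, and both were at 0% in every WT library.

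At day 5, restriction lowered cover of 4 of the 9 tested readers, namely Morf4l1, Psip1, Dnmt3a and Msh6, where 45.8% of all genes were called, 3945 lower and 411 higher. The median difference was -12.8 points over the readers and -9.16 over all genes. Morf4l1 was at 78.9% and 78.2% in control medium and at 42.5% and 47.1% under restriction. The gap was nearly as wide as at day 1 (difference -33.8 points, SE 3.84, limma adjusted p = 0.000236) and was called in 17 of 17 alternatives. Psip1 went from 90.2% and 88.1% to 58.5% and 72.8% (difference -23.5 points, SE 5.88, limma adjusted p = 0.0118). On its own bases the difference was -50.8 points (adjusted p = 0.00243), with 77.7% and 78.6% in control medium and 14.8% and 40.0% under restriction.

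Dnmt3a fell at day 5 from 30.0% and 26.4% to 14.7% and 8.87% (difference -16.4 points, SE 3.24, limma adjusted p = 0.00399). The restricted libraries overlap those of day 0, at 11.2% and 17.4%. The fourth bin of Dnmt3a went from 62.9% to 10.3% and the ninth from 55.1% to 48.2%. Msh6 went from 62.9% and 60.5% to 47.0% and 50.7% (difference -12.8 points, SE 4.51, limma adjusted p = 0.0469), and this call held in 4 of 17 alternatives. On centred values the direction of Dnmt3a (+0.27 points) and of Msh6 (+3.89) turned, and Psip1 (-6.86 points, adjusted p = 0.221) lost its call, leaving 1 reader lower, Morf4l1, and 2 higher. With lists of equal length 1 reader was called, again Morf4l1. Without replicate 1 of either day 5 group, 2 readers were called.

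The readers not called at day 5 include Phf1, Mtf2 and Phf19, the 3 PRC2 accessory subunits. Phf1 was at 72.7% and 65.3% in control medium and at 54.2% and 63.2% under restriction (difference -10.3 points, SE 5.13, adjusted p = 0.135 by limma). Mtf2 was at 72.9% and 72.0% against 52.4% and 57.0%, which do not overlap (difference -17.7 points, SE 9.80, limma adjusted p = 0.174). It was called lower in 1 of 17 alternatives, the fit on only the libraries compared (adjusted p = 0.00946). Phf19 was at 8.07% and 2.08% against 0% in both restricted libraries. Brpf1 and Zmynd11 differed by -4.93 (SE 3.51) and -8.12 points (SE 3.86). Centring turned the signs of Phf1, Phf19, Brpf1 and Zmynd11, not that of Mtf2. It put Phf19 (+11.6 points, limma adjusted p = 0.00995) and Brpf1 (+11.7, limma adjusted p = 0.00941) among the higher calls. Centring moves every gene of a comparison by the same amount. Phf19 had no peak in either restricted library, so its higher call reflects that shift and no gain of cover.

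Whether the response to restriction differed between days was tested as the day 5 difference minus the day 1 difference. It differed for 1 of the 9 readers, Phf1, by 40.1 points (SE 7.26, limma adjusted p = 0.0163), where 5.20% of all genes were called. The loss of 50.4 points at day 1 compares with a difference of -10.3 at day 5. The value stayed between 34.4 and 48.5 points over 17 alternatives, and the call was held in 11 of them. It was lost with the stricter and the equal-length lists and without replicate 1 or 2 of day 1 control, replicate 2 of day 5 control or replicate 2 of day 5 restricted, at adjusted p-values of 0.0533 to 0.0743 in these leave-outs. For Morf4l1 the difference between days was 1.32 points (SE 5.44, adjusted p = 0.922).

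The readers' differences stand beside changes in cover over all genes, whose size depends on the scaling. Centring each library on its median turned the 226 higher and 3422 lower calls of day 1 into 3518 and 1245, and the 411 and 3945 of day 5 into 3757 and 1395, with the median of all genes moving from -7.99 to +7.20 points and from -9.16 to +7.52. Lists of equal length gave 677 higher and 1614 lower at day 1, with a median of -3.52 points, and 1285 and 1683 at day 5, with -0.874. Morf4l1 at both days and Phf1 at day 1 were called lower under every scaling tried. Muscle genes moved with restriction as well, since mean cover of Myog was 71.9% in control medium and 0% under restriction at day 1, and that of Acta1 was 93.1% and 8.66% at day 5. Their part in the readers' values was not tested. In bulk chromatin, fewer cells carrying the mark on a gene and less of it per cell cannot be told apart.

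**Figure D3:**
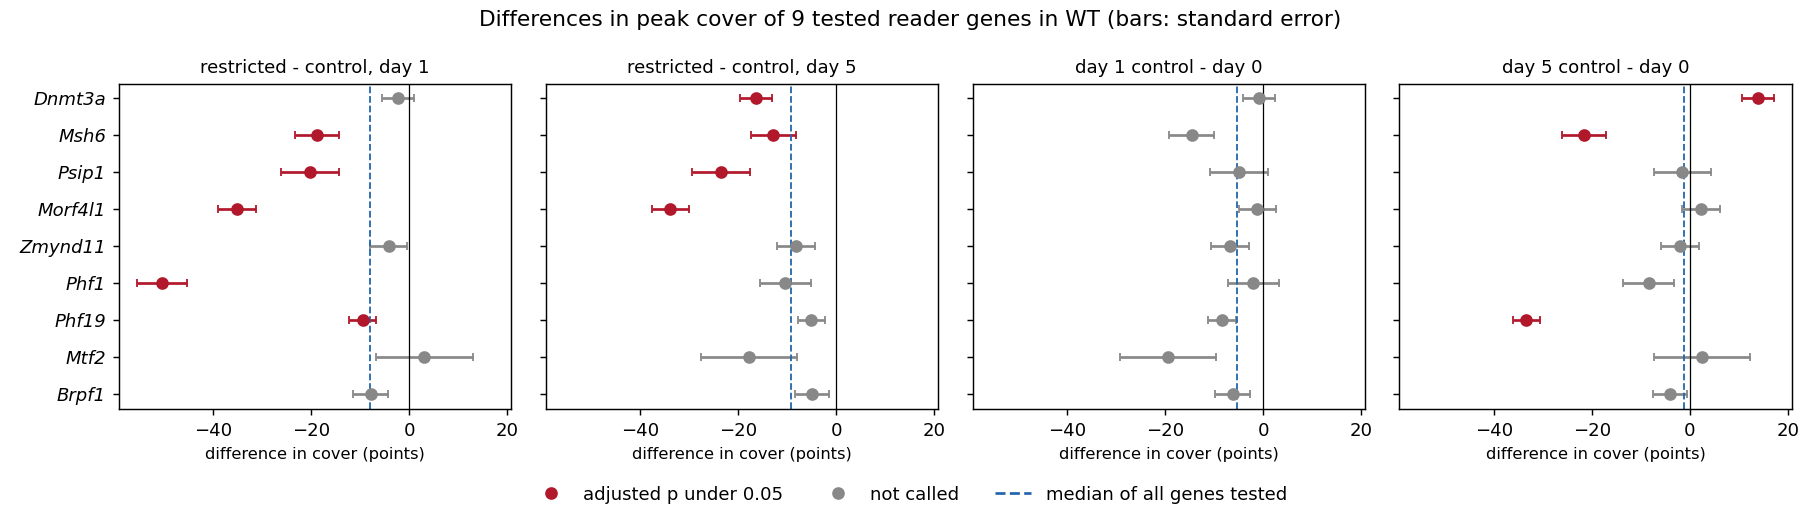
Differences in cover (points, with standard errors) of the 9 tested reader genes in 4 WT comparisons, where red points had an adjusted p under 0.05 and the dashed line is the median of all genes tested. Morf4l1 lies near -35 points on both restricted days and Phf1 at -50.4 on day 1, and these stay negative when libraries are centred on their medians, whereas Phf19 at day 1 and Dnmt3a and Msh6 at day 5 then turn positive.

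The loss under restriction took different parts of different readers, which is given as a description with no test. In Morf4l1 the 5 bins nearest the start went from 55.3% to 8.58% at day 1 and from 61.6% to 6.26% at day 5, while the 5 bins nearest the end went from 95.0% to 71.6% and from 95.5% to 83.3%. The longest stretch of Morf4l1 shortened from 18.2 and 18 kb to 8.80 and 8.59 kb at day 5. Msh6 behaved alike at day 1, from 37.8% to 7.76% on the 5′ side and from 99.6% to 91.9% on the 3′ side. At day 5 its loss was not one-sided: the 5′ side had 25.7% and 21.0% in control medium and 11.5% and 8.55% under restriction, and the 3′ side had 100% in both control libraries and 82.6% and 92.9% under restriction. Phf1 did the opposite at day 1: its 5′ side went from 50.9% to 30.9% and its 3′ side from 100% to 19.1%, and its single stretch of 3.69 and 3.53 kb became 2 stretches of at most 0.892 and 0.638 kb. In Mtf2 at day 1 the 5′ side went from 49.0% to 31.8% and the 3′ side from 52.1% to 75.4%, so the means of the 2 sides moved in opposite directions. The 5′ values overlapped between groups, at 38.0% and 59.9% against 38.8% and 24.9%, and the 3′ values did not, at 42.7% and 61.5% against 88.2% and 62.7%. Over 7711 genes with a strand the median change at day 1 was -5.28 points on the 5′ side and -7.01 on the 3′ side. At day 5 it was -8.47 and -5.48. Of 8 readers, 5 lost more on the 5′ side at day 1 and 6 at day 5, against 50.5% and 58.9% of those genes.

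Between day 0 and day 1 in control medium, 0 of the 9 tested readers were called by limma, beside 6.63% of all genes. At an unadjusted p under 0.05 there were 2, Msh6 (difference -14.6 points) and Phf19 (-8.37), and 2379 of 9514 genes. All 9 differences were negative, with a median of -6.22 points against -5.31 over all genes, and centring turned 7 of the 9 signs. Dnmt3b, tested with no minimum cover, went from 8.22% and 11% to 2.28% and 2.84% (difference -7.04 points, SE 1.41, limma adjusted p = 0.0377). This call was lost in the other 5 analyses that tested the gene, the fit on only the libraries compared (adjusted p = 0.196) and those without any 1 of the 4 day 5 libraries (0.0743 to 0.103).

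Between day 0 and day 5 in control medium, 3 of the 9 tested readers were called, against 27.8% of all genes: Phf19 and Msh6 fell and Dnmt3a rose. Of all genes, 1484 fell and 1157 rose. Phf19 went from 39.4% and 37.5% at day 0 to 30.5% and 29.7% at day 1 and 8.07% and 2.08% at day 5. No library of one day overlaps those of the next (day 5 minus day 0, -33.4 points, SE 2.78, limma adjusted p = 4.59e-05). Lists of equal length gave -3.05 points, and lists of stricter peaks -17.9, neither of them called. Msh6 went from 85.1% and 81.5% to 62.9% and 60.5% (difference -21.6 points, SE 4.51, limma adjusted p = 0.00784). The loss of cover lay on the 5′ side, which went from 66.6% to 23.3%. The 3′ side was at 100% on both days, where a change in the amount of the mark may not show as cover.

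Dnmt3a went the other way, from 11.2% and 17.4% at day 0 to 30.0% and 26.4% at day 5 (difference 13.9 points, SE 3.24, limma adjusted p = 0.0132), held in 12 of 16 alternatives. The call was lost with lists of equal length (5.97 points, adjusted p = 0.0592), in the fit on only the libraries compared (adjusted p = 0.0775), and without replicate 1 of day 0 (0.0619) or of day 5 control (0.0795). The day 5 control libraries in this comparison are also those of the day 5 restriction comparison, so the rise and the fall of Dnmt3a share them. Dnmt3b was at 0.960% and 0% at day 5, which with no minimum cover gave -9.12 points (SE 1.41, limma adjusted p = 0.00338). The 2 de novo methyltransferase genes thus had opposite signs over the 5 days. The remaining tested readers, Brpf1, Morf4l1, Mtf2, Phf1, Psip1 and Zmynd11, differed by -8.44 to 2.46 points and were not called.

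WT cells were then set against the KO lines. All 9 tested readers were higher in WT, by 15.8 points for Dnmt3a to 69.6 for Brpf1, with limma adjusted p-values of at most 0.00141. Of 8861 genes tested, 98.0% were called, 8677 higher in WT and 3 lower. The minimum mean cover was taken over all 20 libraries here, so genes with little KO cover passed it through WT. Dnmt3a and Phf19 were at 0% in every KO library, and the direction of such genes was fixed in advance. An exact permutation test within conditions gave p = 0.000257 for 7 of the 10 readers, the smallest that its 7776 arrangements allow, and 0.00154 to 0.00231 for Dnmt3b, Morf4l1 and Phf19. The 10 KO libraries come from 2 lines that recur in every condition, and both limma and this test count them as independent, so their p-values are too small for a statement about lines. With the KO line as a random block in limma (estimated correlation 0.134), 9 of 9 readers were again called, at adjusted p-values of at most 0.00148. Without KO line 2 the Morf4l1 difference was 21.4 points in place of 42.2. Every reader was at 0% in all 5 libraries of KO line 2. The count of readers whose KO libraries were both below both WT libraries was 10 of 10 in 3 conditions, beside 52.3% of 19304 genes at day 0, 51.2% at day 1 in control medium and 48.4% at day 1 under restriction. It was 9 at day 5 in control medium (47.7% of genes) and 7 at day 5 under restriction (43.6%). In all 5 conditions it was 7, against 38.4% of genes. Phf19 and Dnmt3b missed it because a WT library was itself at 0%, and Morf4l1 because of KO line 1. A gene with a WT library at 0% cannot be counted in that condition. The 19304 genes include ones with little or no WT cover, since 9514 had the minimum mean cover in WT, and 10090 were counted at day 0. The shares above are thus low for a comparison with the readers, of which 9 had that minimum.

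KO line 1 had some cover on 7 of the 10 readers in at least 1 of its 5 libraries, where 46.4% of 19304 genes had any. Of genes with the minimum mean cover in WT, 75.1% had some, beside 7 of 9 readers, so the readers' share is near the background. The values below have no replicate and no test. In Morf4l1 the day 0 library had 37.1%. Control medium gave 30.2% on day 1 and 73.9% on day 5, and restriction gave 0% and 66.9%. At day 5 under restriction this is above both WT libraries, at 42.5% and 47.1%, and in control medium it is below them, at 78.9% and 78.2%. On day 5 Psip1 reached 62.6% with control medium and 25.2% with restriction, and Brpf1 reached 48.6% and 8.54%. On the bases that only Psip1 holds, cover in these libraries was 31.8% and 11.9%, the rest of the gene being shared with Snapc3. Msh6 had 38.9% at day 0, then 25.9% and 42.2% on the later days with control medium, and 23.2% on day 5 with restriction. What remained of Msh6 lay near the end of the gene: at day 0 its seventh to ninth bins were at 100% and the first 5 at 0%. Morf4l1 at day 0 likewise had 100% in its eighth and ninth bins and 0% in the first 5.

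Phf1 was covered to 23.4%, 20.2% and 24.9% in KO line 1 at day 0, day 5 in control medium and day 5 under restriction, and was at 0% on day 1 in both media. Mtf2 reached 10.1% and Zmynd11 13%, both at day 5 in control medium. Dnmt3a, Dnmt3b and Phf19 were at 0% in all 5 libraries. The restricted day 1 library of this line, which had 791 peaks, covered 0 readers (1.70% of all genes had any cover). The day 5 control library, which had 64530, covered 7 (42.0% of all genes). Of 9514 genes with the minimum mean cover in WT, 2.43% and 71.7% had cover in these libraries, beside 0 and 7 of 9 readers. The number of peaks did not track the readers' cover over all libraries of this line. Its restricted day 5 library had 52487 peaks and a reader median of 5.46%, while its day 0 library had 23529 and 9.33%. The part of peak number in these values was not tested. Lists with a −log10 q of at least 3 left 14 of the 25 values above 0 over the KO libraries.

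**Figure D4:**
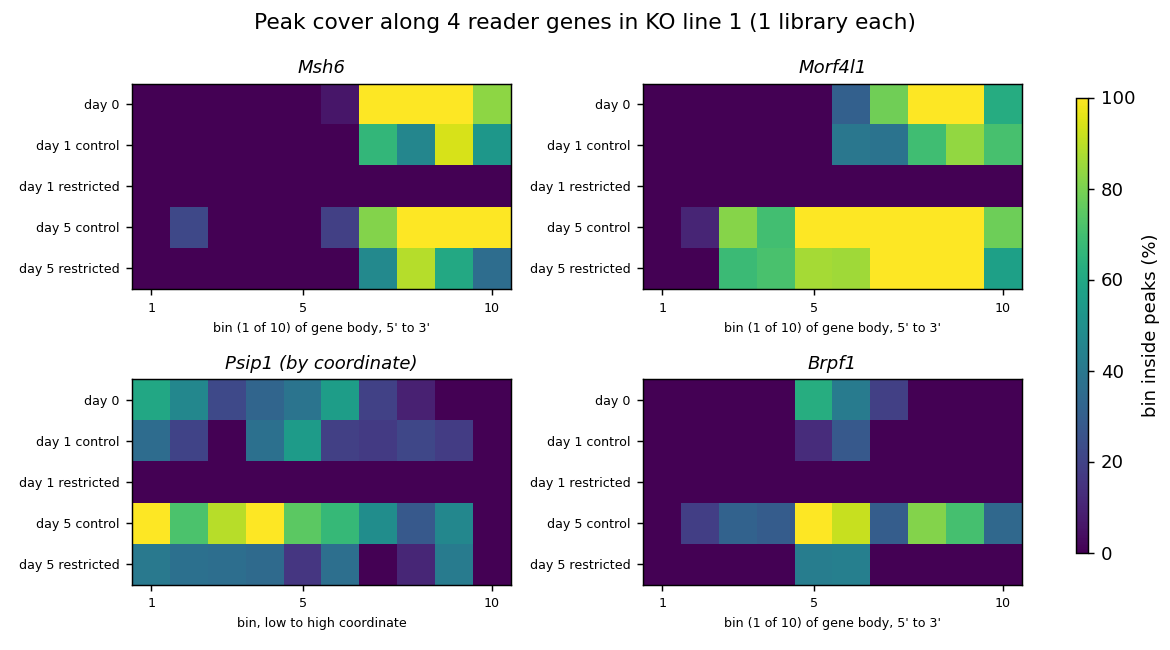
Cover of each bin of the gene body (colour, percent) of Msh6, Morf4l1, Psip1 and Brpf1 in the 5 libraries of KO line 1, from 5′ to 3′ except for Psip1, which is drawn by coordinate. In Msh6 and Morf4l1 the cover at day 0 lies in the later bins, in Brpf1 it lies in the middle, and the restricted day 1 row is at 0% in all 4 genes.

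Across the 10 WT libraries, each reader had a gene of nearly the same cover. The nearest gene by mean absolute difference was Rpl7 for Morf4l1 (2.32 points), Fkbp8 for Phf1 (4.20), Rrbp1 for Msh6 (3.39), Atp5g2 for Psip1 (3.36) and Psma1 for Brpf1 (2.05). For the sparse genes it was Fbrsl1 for Dnmt3a (2.28), Neil3 for Dnmt3b (1.37), Pan3 for Zmynd11 (1.88) and L1cam for Phf19 (3.84), and for Mtf2 it was Emsy (3.85). Likeness here is of level and pattern together over 10 libraries of the same cells. Among the readers the closest pair was Psip1 and Brpf1, at 7.60 points, followed by Morf4l1 and Phf1 at 8.56.

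Genes that work with the readers were followed in 6 lists of 55 genes in all, of which 49 passed the minimum cover in WT. Restriction lowered 18 of them and raised 3 at day 1, and lowered 20 and raised 3 at day 5. Their median differences, -7.10 and -8.90 points, lay near those of all genes. Of all 9514 genes tested, 3422 fell and 226 rose at day 1, and 3945 fell and 411 rose at day 5. The counts of single lists below were not tested against these. Of 8 PRC2 genes, the complex of PHF1, PHF19 and MTF2, 4 fell at day 1 and 3 at day 5. Of these calls, Eed and Ezh1 at day 1 were lost when libraries were centred and with lists of equal length. At day 5 Rbbp7 turned to +1.58 points with lists of equal length, and Jarid2 turned from -6.60 to +10.1 points when centred (limma adjusted p = 0.0225). Rbbp4, which encodes a histone-binding subunit, fell on both days, from 89.7% ± 0.680 to 54.1% ± 6.66 (SD, n = 2 each) at day 1 (limma adjusted p = 0.000156) and from 93.9% ± 0.585 to 57.4% ± 3.37 (SD, n = 2 each) at day 5 (limma adjusted p = 0.000100). Of 15 partners of MORF4L1 and BRPF1 in acetyltransferase and deacetylase complexes, 6 fell on each day, a share close to that of all genes. Kat5, the catalytic subunit of TIP60, fell from 71.0% ± 0.356 to 40.4% ± 1.34 (SD, n = 2 each) at day 1 (limma adjusted p = 0.000189). Brpf3, a paralog of Brpf1, was 1 of 2 in that list that rose at day 5, from 59.5% ± 4.56 to 80.9% ± 4.05 (SD, n = 2 each; limma adjusted p = 0.00137).

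Of 12 tested genes for other PWWP or H3K36-binding proteins, 5 fell at day 1, and 7 fell and 1 rose at day 5, beside the 3422 of 9514 genes that fell at day 1 and the 3945 at day 5. Morf4l2, the paralog of Morf4l1, fell by 49.6 points from 61.7% ± 5.88 (SD, n = 2 each) at day 1 (limma adjusted p = 0.000578) and from 59.7% ± 3.69 to 22.2% ± 6.28 (SD, n = 2 each) at day 5 (limma adjusted p = 0.00180). Msl3, a chromodomain protein of the MSL acetyltransferase complex, rose at day 5 from 32.1% ± 5.47 to 58.5% ± 0.573 (SD, n = 2 each; limma adjusted p = 0.00507). Of 4 LEDGF partners, Men1, which encodes menin, fell at day 1 from 69.0% ± 3.60 to 34.2% ± 16.8 (SD, n = 2 each; limma adjusted p = 0.00839). The differences named for Rbbp4, Kat5, Brpf3, Morf4l2, Msl3 and Men1 kept their sign and their call with stricter peaks, with lists of equal length and with centred libraries. Of 31 restriction calls in the 6 lists that the naming rule covers, 12 did so. Against the KO lines, all 47 of the listed genes that were tested were higher in WT, as were 8677 of 8861 genes. The minimum cover over all 20 libraries lets genes pass through their WT cover alone.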

How the data were processed

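The deposited files were 20 peak lists of 9 columns, 1 per library, each called by the authors on its own. Reads were mapped to GRCm38, per the submitters' processing notes, from 75-nt single-end libraries with a Drosophila spike-in, per the labels' protocols. The peak caller, its control and its settings are not given in the sources used here, and the input and any spike-in scaling were not used here. The fold enrichment (a ratio), the −log10 p, the −log10 q and the score of each peak are the authors' deposited values. The −log10 q was used for the stricter lists (at least 3, where the lowest deposited value was 1.00), and the score was not used. Depth is unknown, so counting error could not be given, and a short list may come from few reads.

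Overlapping peaks were merged (autosomes 1 to 19 and both sex chromosomes), and cover was computed for RefSeq genes on GRCm38.p6, with strand and start windows from the RefSeq promoter table. WT groups were compared with limma 3.58.1 in R 4.3.3 (trend and robust settings, 5 groups sharing an estimate of the spread) on cover of genes with a mean of at least 5%. Benjamini-Hochberg adjusted p-values were called under 0.05. WT and KO were compared over all 20 libraries, with the condition as a term. Named genes are the 10 readers, Setd2, the gene nearest to each reader, and up to 3 called genes per direction of each related list, of which not all are reported here. The readers, lists and tests were chosen with earlier results of these data known. Alternatives were stricter peaks, lists of equal total length, no minimum cover and bases that only 1 gene holds. Others were centring on each library's median cover over the genes tested, fits on only the libraries compared and a replicate block. Each WT library or each KO line was also left out. Tested on simulated data with 200 genes changed by 30 points, limma recovered 66.5% of them in the day 1 restriction comparison, with 7.64% of its calls false, 65.0% in the day 5 one, with 3.70%, 60.5% from day 0 to 1, with 8.33%, and 61.0% from day 0 to 5, with 10.3%.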

Additional observations from a re-analysis of the deposited data

Results flagged for a closer look

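The response of Phf1 cover to restriction differed between days, by 40.1 points (day 5 difference minus day 1 difference, limma adjusted p = 0.0163). Both restricted libraries lay under both controls on each day, at 30.7% and 19.3% against 77.1% and 73.8% at day 1 and at 54.2% and 63.2% against 72.7% and 65.3% at day 5. Among the muscle markers under restriction, mean cover of Myh3 was 0% at day 1 and 57.3% at day 5. The others moved less: Ckm from 0% to 7.53%, Des from 37.3% to 43.3% and Acta1 from 9.91% to 8.66%. Myog, Myod1 and Myf5 were at 0% on both days. The part of these genes in the Phf1 values was not tested.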

How the results depend on the processing

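Peak lists limit every value: a gene with no called peak is at 0% however weak the call missed, and 2 replicates a group give little power. The cause of each change below was not tested. Called readers numbered 3 (day 1) and 1 (day 5) under restriction with stricter peaks, 1 at day 5 with equal-length lists, 1 from day 0 to 1 with stricter peaks or no minimum cover, 1 from day 0 to 5 with stricter or equal-length lists, and 0 for the difference between days with either. Called genes numbered 2291 at day 1 with equal-length lists and 2897 at day 5 with stricter peaks. From day 0 to 1 they numbered 196 with equal-length lists, 335 when centred and 0 on only the libraries compared, where 1877 had an unadjusted p under 0.05. From day 0 to 5 they numbered 1706 on only the libraries compared. Stricter peaks left 14 of 25 KO values above 0 and lowered cover of the bin nearest the start from 3.44% to 1.88%. By Pearson correlation 0 of the 10 readers kept the same nearest gene.

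Leaving out each WT library gave 2 to 6 called readers (2354 to 3984 genes) for day 1 restriction, 2 to 4 (2721 to 4661) for day 5, 0 to 0 (142 to 987) for day 0 to 1, 2 to 4 (1758 to 2657) for day 0 to 5, 0 to 1 (212 to 659) for the difference between days and 9 to 9 (8505 to 8645) for WT against KO. The 6 at day 1 and the 4 from day 0 to 5 include Dnmt3b, which then passed the minimum cover; the 4 at day 5 do not. Signs turned in these ranges for Mtf2 (-7.08 to 13.3) at day 1. They turned from day 0 to 1 for Dnmt3a (-3.94 to 2.23) and Morf4l1 (-2.73 to 0.412). From day 0 to 5 they turned for Zmynd11 (-6.99 to 2.89), Psip1 (-5.98 to 2.89), Mtf2 (-9.86 to 14.8) and Brpf1 (-8.09 to 0.0389), and between days for Psip1 (-10.5 to 3.77) and Morf4l1 (-2.57 to 5.20).

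Other turned signs, in points, follow by setting. With stricter peaks they were Phf19 9.11 and Mtf2 -0.158 at day 1, Zmynd11 0.881 and Mtf2 -12.2 from day 0 to 5, and Zmynd11 0.109, Msh6 -3.51, Phf19 -9.11 and Psip1 3.77 between days. With equal-length lists they were Dnmt3a 1.89, Zmynd11 3.97 and Phf19 16 at day 1, Dnmt3a 4.51 and Phf19 0.129 from day 0 to 1, Zmynd11 2.84, Mtf2 -5.98 and Brpf1 0.536 from day 0 to 5, and Phf19 -16, Psip1 4.43 and Morf4l1 -5.41 between days. Centred, they were Dnmt3a 12.9, Zmynd11 11, Phf19 5.68 and Brpf1 7.30 at day 1, and Dnmt3a 0.270, Zmynd11 8.56, Phf1 6.33, Msh6 3.89, Phf19 11.6 and Brpf1 11.7 at day 5. From day 0 to 1 they were Dnmt3a 7.63, Zmynd11 1.75, Phf1 6.52, Phf19 0.114, Psip1 3.53, Brpf1 2.26 and Morf4l1 7.32, and from day 0 to 5 Zmynd11 0.326 and Psip1 0.833.

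Same-numbered WT replicates deviated from their group means with correlations of -0.439 to 0.0614 over 10 pairs of groups, so the numbers were not taken to pair samples. With a replicate block, 5 readers (3436 genes) were called for day 1 restriction, 3 (4176) for day 5, 0 (466) for day 0 to 1, 3 (2457) for day 0 to 5 and 1 (399) for the difference between days.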

Other observations

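Of 4 tested genes of DNA methylation that are not themselves readers, 2 fell and 1 rose from day 0 to day 5 in control medium, where 27.8% of all genes were called. Uhrf1, which guides maintenance methylation, fell from 92.8% ± 0.547 at day 0 to 48.4% ± 8.89 at day 5 (SD, n = 2 each; limma adjusted p = 0.000115). Dnmt1, the maintenance methyltransferase, fell from 76.0% ± 0.685 to 59.6% ± 2.21 (SD, n = 2 each; limma adjusted p = 0.00445). Tet2, which oxidises methylcytosine, rose from 19.4% ± 3.84 to 47.5% ± 1.19 (SD, n = 2 each; limma adjusted p = 0.000386). Of 6 mismatch repair genes tested beside Msh6, 5 fell from day 0 to day 5, as did 1484 of 9514 genes overall. Exo1, the exonuclease of the pathway, went from 79.0% ± 6.40 to 0.953% ± 1.35 (SD, n = 2 each; limma adjusted p = 6.11e-06). These 4 differences kept their sign and call with stricter peaks, with lists of equal length and with centred libraries.

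Under restriction at day 1, 3 of the 6 mismatch repair genes rose, as did 226 of 9514 genes overall. Exo1 was at 56.3% ± 4.09 in control medium and 72.3% ± 0.935 under restriction (SD, n = 2 each; limma adjusted p = 0.0223), and kept its sign and call under the same 3 alternatives. Pcna, the sliding clamp of replication, went from 51.7% ± 3.89 to 0% in both libraries at day 1 (limma adjusted p = 0.000113).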
